A study of Homo sapiens with 6 samples.

Results

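Genes of the Wnt and Notch pathways were examined in H1299 cells after prolonged treatment with PD 0332991 (palbociclib), an inhibitor of the kinases CDK4 and CDK6. The members were the measured genes whose platform annotation gave exactly 1 symbol and whose symbol named a Wnt ligand, a Frizzled, LRP or LGR receptor, a DKK or SFRP antagonist, an AXIN, RNF43, ZNRF3, a TCF/LEF factor, a Notch receptor, a Jagged or Delta-like ligand, or a HES or HEY repressor. This gave 70 of the 22375 genes measured under 1 symbol, of which 67 encode proteins and 3 are noncoding transcripts that share a name with a member (FZD4-DT, FZD10-AS1 and WNT5A-AS1). Each had 1 row in the table, so no choice between rows was needed. FZD8 shares its row with a microRNA gene and was not used, and TCF7 was not analysed here.

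H1299 is a line from a human non-small cell lung cancer that lacks p53 protein, and all arrays come from this 1 line. One group of 3 arrays had DMSO vehicle alone and the other group of 3 had 500 nM PD 0332991 in DMSO, each for 14 days in RPMI medium with serum. Total RNA was labelled and hybridised to Affymetrix arrays, and each value is the level of a transcript cluster on the log2 scale the authors deposited. The study frames the drug as a way to reactivate the retinoblastoma protein pRB. Whether a group's arrays are separate cultures is not stated in the labels, so p-values cover the spread between these arrays, which may be technical.

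Wnt proteins are secreted ligands that bind a Frizzled receptor together with the co-receptor LRP5 or LRP6. In the canonical branch this stops the destruction of beta-catenin, which then works with TCF/LEF factors at target genes. Notch receptors are activated by Jagged or Delta-like ligands on a neighbouring cell, are cut by ADAM proteases and by gamma-secretase, and release a fragment that joins RBPJ to switch on HES and HEY repressor genes. Both pathways steer cell fate in the developing and regenerating airway.

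The keratin genes KRT8 and KRT18 and the mesenchymal gene VIM lay between 13.9 and 15.8 on every array, whereas the epithelial genes CDH1 and KRT19 lay below 4.70, under every array median, and EPCAM had group means of 5.02 and 5.10, just above them. KRT8 rose by 0.79 and VIM fell by 0.57 under the drug, the mesenchymal genes CDH2 and ZEB1 rose by 0.26 and 0.40, and the part of these shifts in the results was not tested. None of the 13 measured blood, endothelial and fibroblast markers had a mean level above the highest array median of 4.98. The average level of each of these 3 lists ran from 4.20 to 4.53 over the DMSO arrays and from 4.20 to 4.58 over the drug arrays, and 1 marker, PECAM1, was called, with a change of 0.40. MKI67, which marks proliferating cells, was at 14.0 to 14.4 with DMSO and at 6.73 to 6.79 with PD 0332991, so every change given here came with this difference in proliferation, whose part in it was not tested. DMSO replicate 1 and PD 0332991 replicate 2 deviated alike from their group means (Pearson's r = 0.412 across genes, which are not independent replicates), and without both arrays 23 members were called in place of 24, HES4 being lost. The arrays read RNA from whole cultures, so fewer cells with a transcript and less of it per cell cannot be told apart.

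PD 0332991 changed 24 of the 70 members (34.3%), 17 upward and 7 downward, by limma with a Benjamini-Hochberg adjusted p under 0.05 over all genes. Over all genes 38.1% were called, 19.6% higher and 18.5% lower, so the members' share was near the background. The median change was 0.04 among the members and 0.00 among all genes. Called changes of at least 1 on the log2 scale were found in 7 members, LRP6, DKK3, NOTCH3, FZD6, HES1, JAG2 and DKK1, against 9.95% of all genes. The groups did not overlap in 35 members, against 47.5% of all genes. All 24 called members were among the 44 whose mean level lay above the highest array median. Above that level 57.4% of all genes were called and below it 4.98%, and levels near or below it are not shown to be above background.

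**Figure D1:**
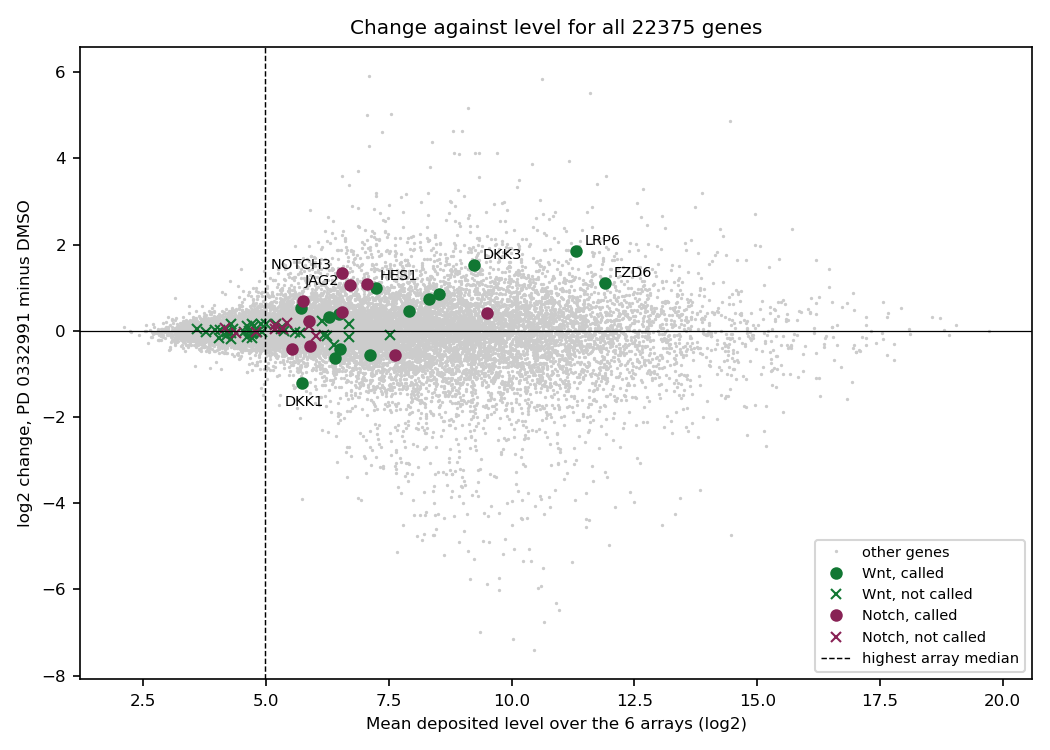
Each point is a gene, with its mean level over the 6 arrays (deposited log2 scale) on the x axis and its log2 change, PD 0332991 minus DMSO, on the y axis. Green marks Wnt and purple Notch members, filled circles are called and crosses are not, and the called members all lie to the right of the dashed line at the highest array median, 4.98.

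On the Wnt side most of the rises were in receptor genes, and the 2 called ligand genes fell. Of the ligand genes 8 of 19 lay above the highest array median, as did 7 of 9 Frizzled, both LRP and 1 of 3 LGR genes. A difference between receptor and ligand genes was not tested. Of the 48 protein-coding Wnt members 10 rose, 4 fell and 34 did not pass. On the Notch side 7 of 19 rose, 3 fell and 9 did not pass. Above the highest array median lay 27 of the Wnt and 16 of the Notch members, and of these 14 and 10 were called, where 57.4% of all such genes were. The median change was 0.01 for the Wnt members and 0.12 for the Notch members.

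Among the 19 Wnt ligand genes 2 fell, none rose and 17 did not pass, while 38.1% of all genes were called. Both called genes were among the 8 ligand genes above the highest array median, where 57.4% of all genes were called. WNT5B, a ligand mostly linked to beta-catenin-independent signalling, read 6.73, 6.81 and 6.58 on the DMSO arrays and 6.13, 6.05 and 6.05 under PD 0332991. It fell by 0.63 ± 0.08 (SE, n = 3 per group), with a limma adjusted p of 0.000316. WNT3, a ligand of the canonical branch, went from 6.73, 6.74 and 6.67 to 6.30, 6.28 and 6.28, and fell by 0.43 ± 0.06 (limma adjusted p = 0.000759). In both genes the groups were apart by more than the spread within them. Changes of the other 17 ligands ran from -0.17 in WNT1 to 0.16 in WNT2B. For 11 of these 17 the mean level lay at or below the highest array median, WNT5A and WNT7B among them, so a lack of response was not shown for them. The others, WNT9A, WNT6, WNT11, WNT10B, WNT16 and WNT2B, had changes of -0.10, -0.03, -0.05, 0.04, 0.16 and 0.16.

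Frizzled genes rose or did not pass. Of the 9 measured, FZD6, FZD2, FZD1 and FZD4 rose and none fell (44.4% called, against 38.1% of all genes). Among the 7 above the highest array median 4 were called, against 57.4% of all such genes, so the share called was near the background. FZD6, a Frizzled best known for planar cell polarity, read 11.47, 11.40 and 11.19 with DMSO and 12.45, 12.61 and 12.32 with PD 0332991, a rise of 1.11 ± 0.10 (limma adjusted p = 5.84e-05; SE, n = 3 per group). FZD2 rose by 0.85 ± 0.11, from 8.26, 8.11 and 7.91 to 8.88, 9.10 and 8.85. In both genes the lowest drug array was above the highest DMSO array. FZD1 rose by 0.40 ± 0.06. FZD4 rose by 0.32 ± 0.08 (limma adjusted p = 0.0141) and lost its call in 3 of 13 alternatives, with arrays centred on their medians (0.0589), without DMSO replicate 2 (0.0614) and without PD 0332991 replicate 1 (0.0524). FZD5 had a change of -0.33 with a 95% interval from -0.63 to -0.02 (limma adjusted p = 0.0921), and it passed without DMSO replicate 3 (0.00373). FZD7 had a change of 0.17 with a 95% interval from -0.09 to 0.42. FZD3, with a mean DMSO level of 7.58, had a change of -0.10 with an interval from -0.30 to 0.11. FZD9 and FZD10 were below the array medians.

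Both co-receptor genes rose, and LRP6 had the largest rise of all members. Both genes lay above the highest array median, where 57.4% of all genes were called. LRP6, the co-receptor that Wnt signalling phosphorylates to recruit AXIN, read 10.46, 10.47 and 10.23 in DMSO and 12.21, 12.27 and 12.23 under PD 0332991. It rose by 1.85 ± 0.08 (SE, n = 3 per group; limma adjusted p = 1.14e-06), the 238th largest rise among the 22375 genes. The drug arrays were closer together than the DMSO arrays, and all lay above them. LRP5, its close relative, went from 8.07, 7.95 and 7.80 to 8.63, 8.86 and 8.56 and rose by 0.74 ± 0.10 (limma adjusted p = 0.000629). LGR4, a receptor for R-spondins, which strengthen Wnt signals, rose by 0.98 ± 0.11 from 6.94, 6.68 and 6.61 to 7.74, 7.84 and 7.58 (limma adjusted p = 0.000150). LGR5 and LGR6, the other R-spondin receptor genes, were at mean DMSO levels of 4.30 and 4.74, below the array medians, with changes of 0.04 and -0.08.

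**Figure D2:**
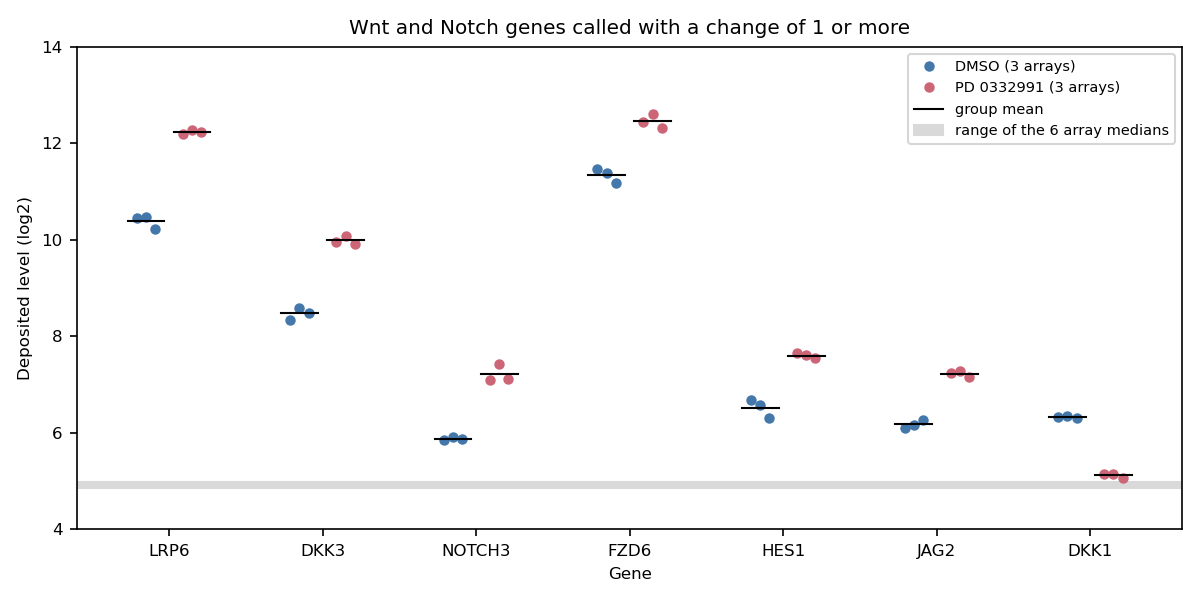
Deposited log2 level (y axis) on every array of the 7 members called with a change of 1 or more, with DMSO in blue, PD 0332991 in red and black bars at the group means; the grey band spans the 6 array medians. The 3 drug arrays lie above the 3 DMSO arrays in LRP6, DKK3, NOTCH3, FZD6, HES1 and JAG2 and below them in DKK1.

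Among the secreted antagonists, DKK1 and DKK3 moved in opposite directions. DKK1 binds LRP5 and LRP6 and blocks them, and it is itself a target of beta-catenin in many cells. It read 6.32, 6.35 and 6.31 in DMSO and 5.14, 5.14 and 5.07 under PD 0332991, and fell by 1.21 ± 0.06 (SE, n = 3 per group; limma adjusted p = 2.58e-06). The arrays of each group lay close together, with no overlap between groups. The drug level lay just above the array medians, so the size of the fall is uncertain. DKK3, the divergent member of the family, which is not known to block LRP6, went from 8.34, 8.59 and 8.49 to 9.96, 10.08 and 9.92. It rose by 1.51 ± 0.09 (limma adjusted p = 4.36e-06), and its groups were also apart. DKK2 and DKK4 and the antagonist genes SFRP2, SFRP4 and SFRP5 lay below the array medians. SFRP1, at a DMSO level of 5.36, had a change of 0.00 with a 95% interval from -0.17 to 0.18.

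The promoter of DKK1 is shown because it holds the letters CTTTGA, the core that TCF/LEF factors bind, once on each strand. TCF/LEF sites with other letters were not searched and are not marked, and binding was not tested. The window runs from 250 bases before to 50 after the start that RefSeq gives, at chr10:52314031-52314330 of GRCh38.p14, + strand, with the matches in capitals. They begin 149 and 95 bases before the start, and the first is read on the opposite strand.
DKK1: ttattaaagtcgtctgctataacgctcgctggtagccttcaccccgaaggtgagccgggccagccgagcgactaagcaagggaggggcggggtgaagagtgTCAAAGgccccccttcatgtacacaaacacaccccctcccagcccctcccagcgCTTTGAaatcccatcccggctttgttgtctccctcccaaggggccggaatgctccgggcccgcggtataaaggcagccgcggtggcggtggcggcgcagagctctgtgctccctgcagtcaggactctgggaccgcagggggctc
CTTTGA occurs on either strand in 12.9% of the 35116 windows of this length in the set of RefSeq promoters used. Of the 70 members 50 had an entry in this set, and DKK1 was the only one of them with a match. LRP6, DKK3 and FZD6 had no entry in it, so their promoters were not searched.

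None of the 4 genes for intracellular and membrane inhibitors passed. AXIN2, a scaffold of the beta-catenin destruction complex and a widely used readout of canonical Wnt signalling, read 5.30, 5.29 and 5.21 with DMSO and 5.44, 5.27 and 5.36 with PD 0332991. Its groups overlapped, with a change of 0.09 and a 95% interval from -0.08 to 0.26 (limma adjusted p = 0.427). The mean levels of AXIN2, 5.27 and 5.36, lay just above the highest array median of 4.98, so a lack of response was not shown. AXIN1, the constitutive scaffold, read 6.66, 6.75 and 6.84 and then 6.69, 6.58 and 6.56, a change of -0.14 (-0.32 to 0.04). ZNRF3, a ubiquitin ligase that removes Frizzled receptors from the cell surface, read 6.32, 6.24 and 6.33 and then 6.24, 6.15 and 6.15. Its change was -0.12 (-0.27 to 0.04). RNF43, the related ligase, read 4.46, 4.62 and 4.56 and then 4.75, 4.50 and 4.73, all below the array medians, with a change of 0.12 (-0.09 to 0.33).

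All 3 measured TCF/LEF genes changed, not in one direction. All 3 lay above the highest array median, where 57.4% of all genes were called. LEF1, mostly an activator of Wnt targets, read 7.41, 7.42 and 7.37 in DMSO and 6.82, 6.90 and 6.80 under PD 0332991, and fell by 0.56 ± 0.07 (SE, n = 3 per group; limma adjusted p = 0.000210). TCF7L1, mostly a repressor, rose by 0.52 ± 0.10 from 5.57, 5.28 and 5.47 to 5.85, 6.07 and 5.97 (limma adjusted p = 0.00306). TCF7L2, which can act in either way, rose by 0.47 ± 0.10 from 7.84, 7.72 and 7.45 to 8.15, 8.17 and 8.09 (limma adjusted p = 0.00694). The groups did not overlap in any of the 3 genes.

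Of the Notch receptor genes NOTCH3 and NOTCH2 rose and NOTCH1 and NOTCH4 did not pass (50% called). All 4 lay above the highest array median, where 57.4% of all genes were called. NOTCH3 read 5.84, 5.91 and 5.87 in DMSO and 7.09, 7.41 and 7.12 under PD 0332991, a rise of 1.33 ± 0.10 (limma adjusted p = 1.38e-05; SE, n = 3 per group). NOTCH2 rose by 0.42 ± 0.10, from 9.45, 9.32 and 9.11 to 9.62, 9.75 and 9.75 (limma adjusted p = 0.00945). The lowest drug array lay above the highest DMSO array in both. NOTCH1 read 5.78, 5.82 and 5.86 and then 5.91, 6.02 and 5.89, which is also without overlap, with a change of 0.12 and a 95% interval from -0.04 to 0.28 (limma adjusted p = 0.253). NOTCH4 had a change of 0.04 (-0.16 to 0.24).

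Both Jagged genes rose, and of the Delta-like genes DLL3 fell and the other 2 did not pass (60% of the 5 called, against 38.1% of all genes). Of the 4 above the highest array median 3 were called, against 57.4% of all such genes. JAG2 went from 6.10, 6.16 and 6.26 in DMSO to 7.23, 7.28 and 7.16 under PD 0332991, a rise of 1.05 ± 0.07 (limma adjusted p = 1.15e-05; SE, n = 3 per group). JAG1 rose by 0.68 ± 0.08, from 5.36, 5.42 and 5.46 to 6.15, 6.15 and 5.98 (limma adjusted p = 0.000160). All drug arrays were above all DMSO arrays in both genes. DLL3, an atypical ligand that inhibits Notch within the cell and is high in neuroendocrine lung tumours, read 5.61, 5.72 and 5.86 and then 5.24, 5.23 and 5.47. It fell by 0.42 ± 0.10 (limma adjusted p = 0.0101). The mean DMSO level of JAG1, 5.41, and the mean drug level of DLL3, 5.31, lay just above the array medians. The sizes of these 2 changes are therefore uncertain. DLL1 had a change of 0.14 (95% interval -0.02 to 0.29), and DLL4, with mean levels below the array medians, one of -0.03.

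The HES and HEY repressor genes, which include the classical Notch targets, went both ways. HES1, HEY2 and HES4 rose, HES7 and HEY1 fell, and 5 of the 10 did not pass (50% called, against 38.1% of all genes). Of the 8 above the highest array median 5 were called, against 57.4% of all such genes. HES1 read 6.68, 6.57 and 6.30 in DMSO and 7.64, 7.60 and 7.54 under PD 0332991, a rise of 1.08 ± 0.10 (limma adjusted p = 6.77e-05; SE, n = 3 per group). The drug arrays were closer together than the DMSO arrays, and the groups were apart. HEY1, another Notch target, read 5.87, 6.14 and 6.20 and then 5.74, 5.73 and 5.71. It fell by 0.34 ± 0.09 (limma adjusted p = 0.0207), a call lost in 4 of 13 alternatives, without DMSO replicate 2 (0.0788), DMSO replicate 3 (0.0656), PD 0332991 replicate 2 (0.0520) or PD 0332991 replicate 3 (0.0660). HES7, a transcriptional repressor that oscillates during somite formation, fell by 0.57 ± 0.09 from 7.98, 7.85 and 7.89 to 7.15, 7.42 and 7.44. HEY2 rose by 0.44 ± 0.08 from 6.35, 6.33 and 6.30 to 6.82, 6.87 and 6.62. HES4 rose by 0.22 ± 0.07 (limma adjusted p = 0.0414), a call lost in 9 of 13 alternatives, with adjusted p-values from 0.0203 to 0.152 over all of them. HES6, HES5 and HEYL, above the array medians, had changes of -0.11, 0.04 and 0.17.

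The promoter of HES1 is shown because the letters TGGGAA, found in the core of RBPJ sites, occur in it more than once. Only these letters were searched, so RBPJ sites with other letters are not marked. The matches are not shown to be a paired site, and binding was not tested. The window, 250 bases before to 50 after the RefSeq start, is chr3:194135898-194136197 of GRCh38.p14, + strand, and the matches in capitals begin 84 and 70 bases before the start.
HES1: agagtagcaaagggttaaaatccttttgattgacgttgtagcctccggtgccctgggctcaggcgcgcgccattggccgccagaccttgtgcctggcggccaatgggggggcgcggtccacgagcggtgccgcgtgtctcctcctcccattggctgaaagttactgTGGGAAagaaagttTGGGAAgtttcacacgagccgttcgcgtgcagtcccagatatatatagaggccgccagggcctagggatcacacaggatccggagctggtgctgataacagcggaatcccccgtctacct
TGGGAA occurs on either strand in 24.0% of all windows, and in 12 of the 50 members with an entry. Among the 18 called members with an entry these were HES1, HES4, HEY2, LEF1, LGR4 and WNT5B, which includes genes that rose and genes that fell. JAG2 and NOTCH3 had neither these letters nor CTTTGA in their windows. The E2F letters TTTGGCGC or TTTCCCGC were in 2.3% of all windows and in 1 member, NOTCH2. The motifs were searched on both strands and did not overlap each other in the sequences shown.

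**Figure D3:**
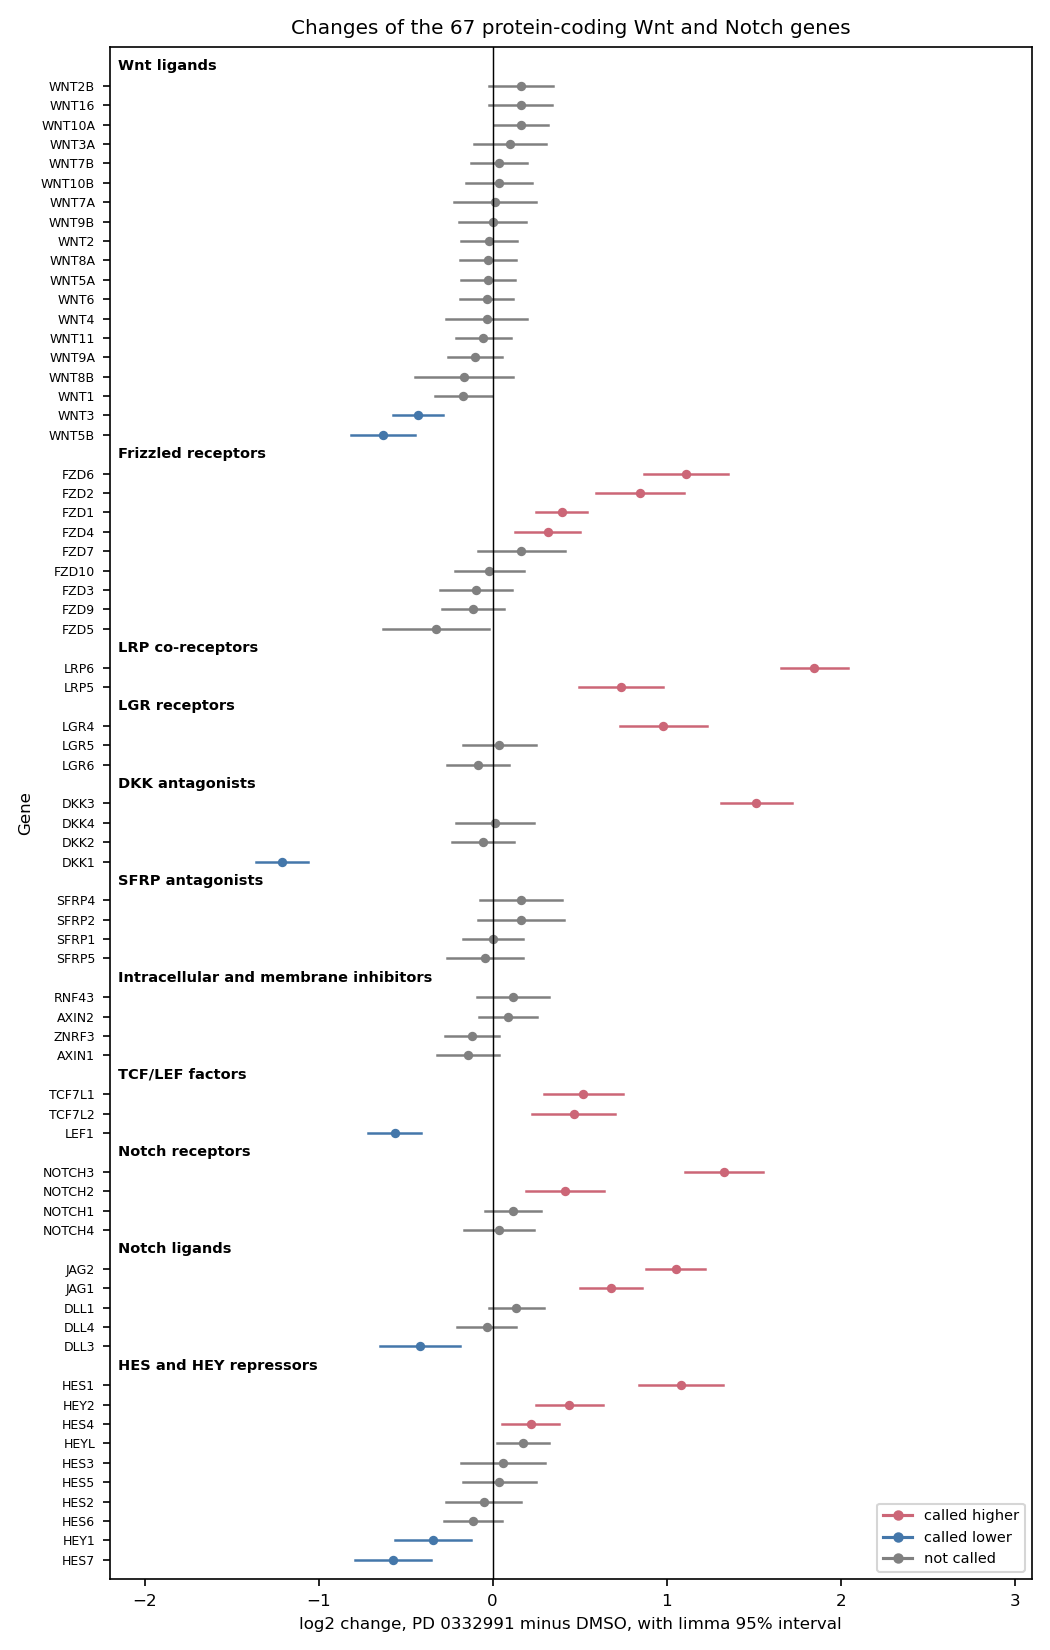
The x axis gives the log2 change, PD 0332991 minus DMSO (3 arrays each), with its 95% interval from limma for each of the 67 protein-coding members, grouped by role on the y axis. Red marks genes called higher, blue called lower and grey not called. The called Frizzled, LRP, LGR, Notch receptor and Jagged genes lie right of 0. Of the 19 Wnt ligands 2 were called, and these lie left of 0.

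The sizes of called changes within some families are set side by side here, for pairs chosen after the values were seen. An exact permutation test of 3 against 3 arrays cannot give a p under 0.1, and no test result is used. The change of LRP6 exceeded that of LRP5 by 1.11 ± 0.09 (SE, n = 3 per group), NOTCH3 exceeded NOTCH2 by 0.92 ± 0.14, and JAG2 exceeded JAG1 by 0.37 ± 0.03. These standard errors came from the pair's own arrays without limma's moderation. With 3 arrays per group they are imprecise and not comparable with the limma ones. TCF7L1 and TCF7L2 had close changes of 0.52 and 0.47. The DMSO levels of JAG1 and TCF7L1 lay just above the array medians, so the comparisons with them are uncertain.

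The 3 noncoding transcripts did not pass. FZD4-DT, transcribed away from FZD4, had a change of 0.23 ± 0.13 (SE), and passed only without DMSO replicate 3, where the change was 0.37 (limma adjusted p = 0.0182). FZD10-AS1 and WNT5A-AS1 had changes of -0.15 and -0.19 at levels below the array medians.

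Other parts of the Wnt pathway were read from a list of 48 genes that are no members, of which 45 were measured. Of these 26 rose, 2 fell and 17 did not pass (62.2% called, against 38.1% of all genes), with a median change of 0.29. Among the 37 with a mean level above the highest array median 26 were called, against 57.4% of all such genes. TLE1, a Groucho co-repressor that binds TCF factors and HES proteins, went from 8.01, 7.90 and 7.75 in DMSO to 9.62, 9.98 and 9.60 under the drug and rose by 1.84 ± 0.12 (SE, n = 3 per group; limma adjusted p = 7.66e-06). ROR1, a receptor for WNT5A-type ligands, rose by 1.71 ± 0.10 from 6.39, 6.22 and 6.27 to 7.86, 8.19 and 7.97. In both genes all drug arrays lay above all DMSO arrays. WLS, which carries Wnt proteins to the cell surface, rose by 1.10 ± 0.09 from 10.21, 10.05 and 9.98 to 11.25, 11.21 and 11.07. GSK3B, the kinase that marks beta-catenin for destruction, rose by 1.09 ± 0.07 from 10.975, 10.998 and 10.916 to 11.997, 12.108 and 12.068. These 4 had the largest changes of the list, and the groups were apart in WLS and GSK3B too. The genes that fell were CTNNBIP1, an inhibitor of beta-catenin's binding to TCF, with a change of -0.84, and the planar polarity gene VANGL1 with -0.66. CTNNB1, the beta-catenin gene, rose by 0.32 ± 0.09 (limma adjusted p = 0.0224), from 9.59, 9.49 and 9.29 to 9.77, 9.81 and 9.75. Its call was lost without any single array except DMSO replicate 1 (adjusted p from 0.0522 to 0.0648) and with arrays centred on their medians (0.0926). The feedback target genes NKD1, NOTUM and APCDD1 had changes of -0.08, -0.03 and -0.04 at levels near the array medians.

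In the list of 36 further Notch pathway genes 31 were measured, of which 11 rose, 4 fell and 16 did not pass (48.4% called, against 38.1% of all genes), with a median change of 0.07. Among the 28 above the highest array median 15 were called, against 57.4% of all such genes. NCSTN, the nicastrin subunit of gamma-secretase, read 9.53, 9.54 and 9.45 in DMSO and 12.21, 12.34 and 12.26 under PD 0332991. It rose by 2.76 ± 0.07 (SE, n = 3 per group; limma adjusted p = 7.58e-08), the 56th largest rise of all genes. APH1B, for another subunit of the enzyme, rose by 1.41 ± 0.07 from 6.96, 6.90 and 6.99 to 8.35, 8.43 and 8.30, and its groups were apart. APH1A, for the alternative form of that subunit, rose by 0.70 ± 0.07, while PSENEN, for another subunit, fell by 0.32 ± 0.07 at deposited levels above 16, beyond the log2 range of such scanners, which leaves its size as a ratio uncertain. PSEN2, for a catalytic subunit, had a change of 0.07. DTX3L, a Deltex-related ubiquitin ligase that also takes part in interferon responses, rose by 1.82 ± 0.10 from 8.40, 8.23 and 8.13 to 10.05, 10.22 and 9.96. MAML3, a co-activator of the Notch and RBPJ complex, rose by 0.94 ± 0.06 from 6.02, 6.08 and 6.09 to 7.02, 7.02 and 6.99. Its relatives MAML2 and MAML1 rose by 0.94 ± 0.12 and 0.35 ± 0.10, and the MAML1 call was lost with arrays centred on their medians (limma adjusted p = 0.0812) and without DMSO replicate 2 (0.0801), DMSO replicate 3 (0.0627) or PD 0332991 replicate 2 (0.0636). RBPJ itself had a change of 0.19 ± 0.07 (limma adjusted p = 0.0790) and passed when dim genes were left out (0.0421). NRARP, a Notch target and feedback inhibitor, fell by 0.33 ± 0.09, a call lost without DMSO replicate 2 (limma adjusted p = 0.0565). Its mean drug level of 5.01 lay just above the array medians, so the size of the fall is uncertain. The protease gene ADAM10, which makes the first cut in Notch, rose by 0.62 ± 0.08, while ADAM17 had a change of -0.01. The other called genes of the list were NUMB, ITCH and AAK1, with changes of 0.72, 0.52 and 0.34. DLK2 and POGLUT1 were called too, with changes of -0.24 and -0.28. The AAK1 and DLK2 calls were lost under some alternatives.

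**Figure D4:**
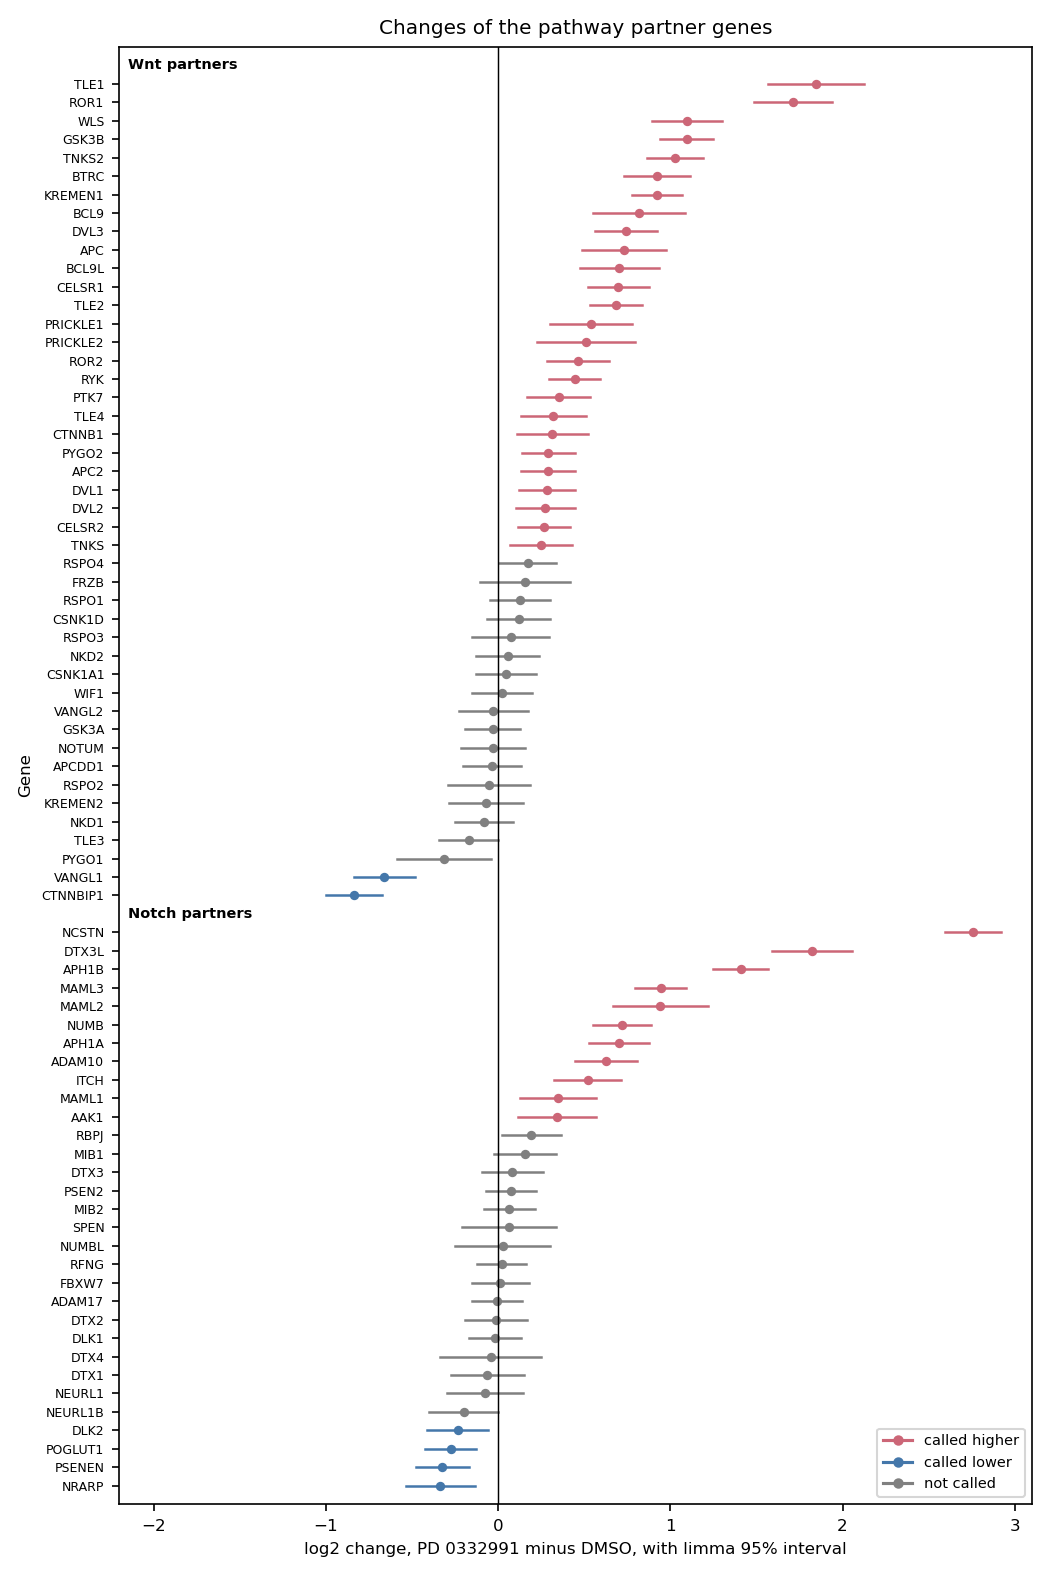
Log2 change, PD 0332991 minus DMSO (x axis, 95% limma intervals, 3 arrays per group), of the 45 measured Wnt and 31 measured Notch pathway genes that are no members (y axis). Red marks genes called higher, blue called lower and grey not called; NCSTN is farthest to the right at 2.76.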

How the data were processed

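H1299 RNA was measured on 6 arrays, 3 per group. The authors deposited log2 values for 65535 transcript clusters, made with Affymetrix Expression Console per the submitters' processing notes; its version and its correction and scaling steps are not stated. Base 2 was inferred from the range of values, whose maximum of 19.9 exceeds the log2 range of a 16-bit scanner, so log2 changes may not translate into ratios of RNA. Detection flags and scan batches were not examined.

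Symbols came from the platform annotation. Of the clusters 22685 had 1 symbol, 1385 several and 41465 none listed; the brightest row stood for a gene, which gave 22375 genes. PD 0332991 minus DMSO was fitted on these values in R 4.3.3 with limma 3.58.1 (lmFit, eBayes, Benjamini-Hochberg over all genes, called at an adjusted p under 0.05). Standard errors and 95% intervals are limma's moderated ones, except for the differences between genes of a family, and p-values are two-sided. The number of arrays limits the precision, with a median standard error of 0.0875. In simulated data with 22375 genes and 200 changed, 157 changed genes were called, with 7 false calls. The simulated noise was independent between genes and arrays, and a far smaller share of genes changed than the 38.1% called here. These counts check the fitting steps and do not give the error rate of the calls in these data. The members, partner lists and alternatives were chosen with earlier results of these data known. By rule, array values were given for called members with a change of 1 or more, a fixed set of pathway genes and the 4 largest called changes of each partner list. Other genes were named by role after their values were seen. Some of these also have array values, among them WNT5B, WNT3, FZD2, LGR4, AXIN1, DLL3, HES7, HEY2 and CTNNB1. Promoter windows came from a set of RefSeq promoters (GRCh38.p14) that did not hold every member. Alternatives were median centring, quantile normalization, averaging a gene's rows, leaving out dim genes, trended robust eBayes, a replicate block, and leaving out each array or DMSO replicate 1 with PD 0332991 replicate 2.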

Additional observations from a re-analysis of the deposited data

How the results depend on the processing

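The counts of called members held under all 13 alternatives: 15 to 18 rose and 6 to 8 fell, against 17 and 7. Leaving out single arrays gave 15 to 17 rising and 6 to 7 falling members, 36 to 42 called pathway partners against 43, and 7483 to 8075 called genes against 8529. Without DMSO replicate 1 and PD 0332991 replicate 2 together, 16 members rose and 7 fell. With the replicate number as a block, 16 rose and 8 fell and 7708 genes were called; HES4 lost its call and FZD5 gained one (limma adjusted p = 0.0441). Shared numbers have no stated meaning in the labels, and deviations of same-numbered arrays from their group means correlated at -0.329, -0.147 and 0.0982. Calls of 21 of the 24 members were kept under every alternative, and HES4, HEY1 and FZD4 lost theirs under some. Of the partners 10 lost a call under some alternative and 5 gained one. Besides FZD5 and FZD4-DT, calls were gained by WNT9A after quantile normalization (limma adjusted p = 0.0427) and HEYL without dim genes (0.0332). No called member or partner changed direction, and the cause of these shifts was not tested. Array number and levels near the array medians limit what could be detected among the Wnt ligands, SFRP genes, RNF43 and AXIN2.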
